A study of Mus musculus with 20 samples.

Results

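The levels of 9 genes known from cystic kidney disease were followed across mouse kidneys in which *Pkd2* had been deleted from tubules: *Pkd2*, *Pkd1*, *Pkhd1*, *Ganab*, *Prkcsh*, *Dnajb11*, *Bicc1*, *Cys1* and *Glis2*. They were picked by name out of the 24411 genes in the table of read counts. All 9 were present in the table and passed the filter on low counts in every comparison, and their counts ranged from 377 to 8121 per mouse.

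Whole-kidney RNA was sequenced from 20 C57BL/6 mice at P125 (days after birth), 1 library per mouse and 5 mice in each of 4 groups. Male and female mutants were *Pkd2*fl/fl; *Pax8*rtTA; *TetO*Cre and had received doxycycline (DOX) at 50 mg per kg from P27 to P29. In these animals the *Pax8* promoter drives the DOX-dependent activator rtTA in renal tubular segments, so that Cre is targeted to tubular epithelium and not to the other cells of the kidney. Male and female controls were littermates that lacked *Pax8*rtTA or *TetO*Cre and were given the same DOX. The study describes such controls as *Pkd2*fl/fl as well, so that mutants differed in carrying both transgenes. There were 3 litters (A, B and C). Single mice carry a code of sex, genotype and number, so that FM3 is a female mutant and MC4 is a male control. Each mouse also had a body weight and a kidney weight, from which kidney to body weight (KBW, in percent) was computed.

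Polycystin-1 and polycystin-2, the products of *Pkd1* and *Pkd2*, form a receptor and channel complex at the primary cilium and other membranes of tubular cells, and loss of either causes autosomal dominant polycystic kidney disease (ADPKD). Fibrocystin, the product of *Pkhd1*, is the protein lost in autosomal recessive polycystic kidney disease. Glucosidase II (*Ganab* and *Prkcsh*) and the chaperone cofactor DNAJB11 act in the endoplasmic reticulum, where polycystin-1 and other membrane proteins are folded and matured, and variants in these genes cause milder or atypical forms of ADPKD or polycystic liver disease. *Bicc1*, *Cys1* and *Glis2* encode an RNA-binding protein, the ciliary protein cystin and a zinc-finger transcription factor, and mutations in each give cystic or nephronophthisis-like kidneys in mice.

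The segment that Cre removes in recombined tubule cells of the mutants lies within *Pkd2* (GRCm38 chr5:104459450-104505819, plus strand). The genotyping primers of the study name exons 11 to 13. Whether they count exons as the annotation used here does is not given in the sources used here, and the sequences and the reading frame below hold only if they do. In the longest coding transcript of GENCODE M21, with 15 exons, these are coding throughout and run 5′ to 3′ as follows.
Exon 11, chr5:104498441-104498562: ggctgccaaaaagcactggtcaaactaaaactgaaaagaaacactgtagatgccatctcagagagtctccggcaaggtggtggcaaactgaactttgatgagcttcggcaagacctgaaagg
Exon 12, chr5:104498758-104498875: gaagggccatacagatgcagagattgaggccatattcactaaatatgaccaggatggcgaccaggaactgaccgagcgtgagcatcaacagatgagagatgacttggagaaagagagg
Exon 13, chr5:104499170-104499333: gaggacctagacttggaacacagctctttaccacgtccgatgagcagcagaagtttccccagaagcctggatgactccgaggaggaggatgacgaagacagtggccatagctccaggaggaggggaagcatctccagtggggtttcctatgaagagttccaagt

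Together these 3 annotated exons hold 404 bases, which leave a remainder of 2 when divided by 3. Exon 14 then follows in a shifted reading frame, and the first stop codon of that frame, in capitals here, begins at base 58 of exon 14.
Exon 14, chr5:104502292-104502439: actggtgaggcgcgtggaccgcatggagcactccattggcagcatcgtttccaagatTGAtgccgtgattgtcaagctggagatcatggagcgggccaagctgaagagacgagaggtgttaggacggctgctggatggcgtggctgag

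Read from the annotated start, the frame without exons 11 to 13 holds 723 codons before this stop, against 966 in the full transcript. The 3 exons are 13.9% of the coding sequence and 7.74% of the 5219-base transcript. The counts were made per gene and not per exon, so reads from the remaining exons of a recombined allele are still counted as *Pkd2*.

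Total counts per mouse lay between 11307741 and 19324073. *Xist* and the Y-linked *Ddx3y* matched the labelled sex in all 20 mice, and the proximal tubule marker *Lrp2* was at least 1842 CPM in each (CPM, a count scaled to a common library size). The library of FM4, the least deep, detected 14850 genes against 16776 to 17724 in the other 19. It held 76 genes with a single count, against 708 to 859 in the other 19. MC4, the next least deep at 12726655 counts, detected 16776 genes and had 847 with a single count. What sets FM4 apart was not tested. Values without FM4 are given beside several of the results. In whole kidney, fewer cells of a type and less RNA per cell cannot be told apart. CPM below are on the linear scale, and fold changes are on the log2 scale from the quasi-likelihood test of edgeR, with litter as covariate. A gene was called changed at a Benjamini-Hochberg adjusted p under 0.01 over all genes tested.

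*Pkd2* was lower and *Glis2* higher in mutants than in controls of both sexes, with no overlap between the groups, while *Pkd1* did not differ detectably. In males, 3 of the 9 genes were called (*Pkd2* lower, *Glis2* and *Bicc1* higher), where 8.46% of the 14010 genes tested were called. In females none of the 9 was called, where 0.637% of 14439 genes were. Without FM4 1 of the 9 was called (*Pkd2*), where 5.93% of 14595 genes were. Among the 9, 2 had an unadjusted p under 0.05 in females, *Pkd2* and *Glis2*, near the share of 20.6% over all genes. DESeq2's Wald test called the same 2, where it called 6.43% of all genes. Over both sexes together 2 of the 9 were called, *Pkd2* and *Glis2*, where 15.9% of 14191 genes were. The median log2 fold change of the 9 genes in that comparison was 0.17, against −0.01 over all genes tested.

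**Figure D1:**
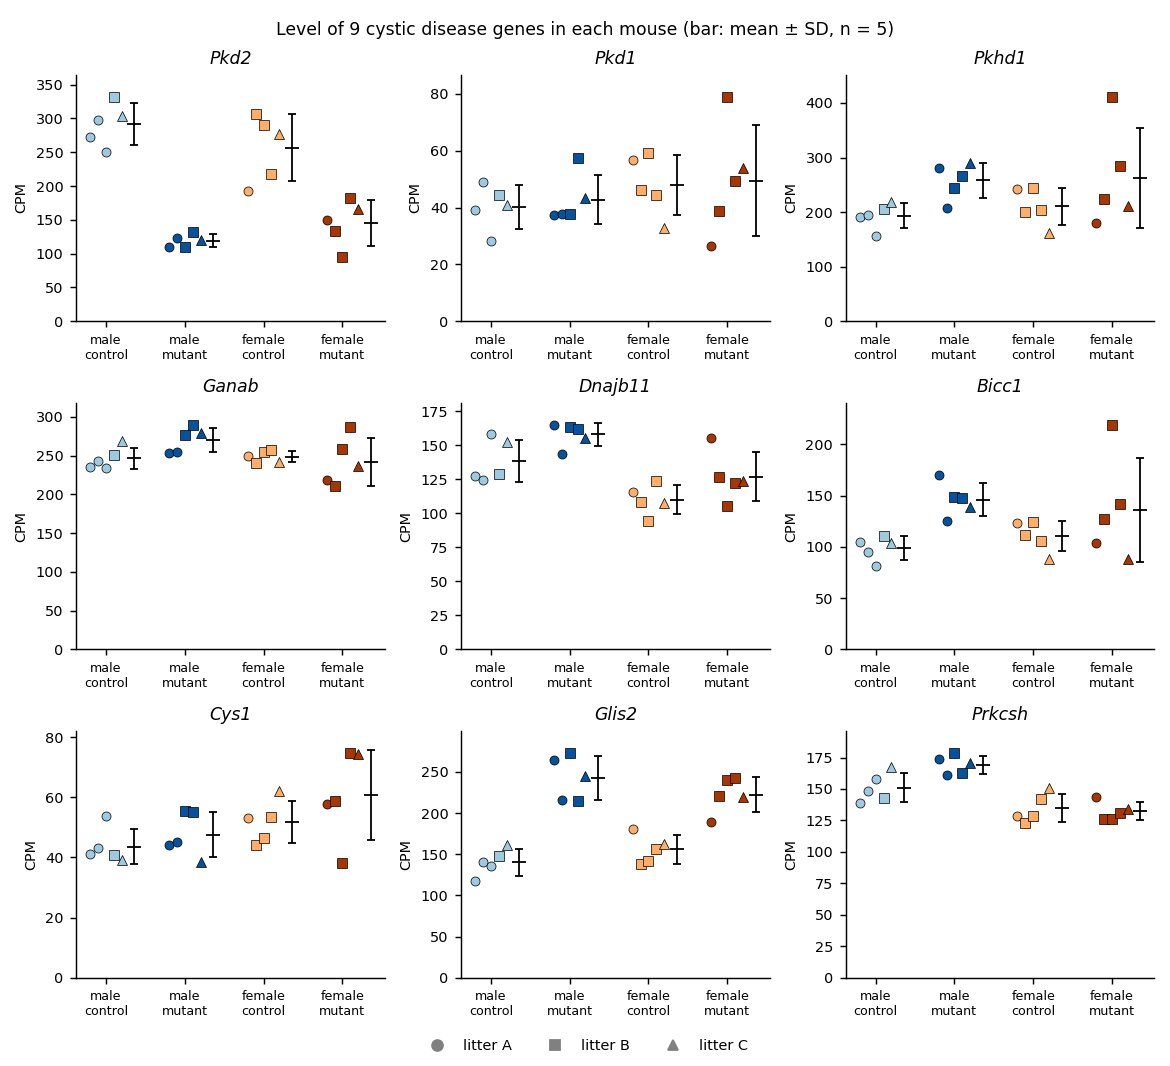
CPM of each of the 9 genes (vertical axes, from 0) in each mouse of the 4 groups, with the mean ± SD of 5 mice as a bar and the litter as the symbol. *Pkd2* in the male mutants lies between 109.7 and 133 CPM and in the male controls between 250.3 and 332, and the *Glis2* mutants lie above the controls of both sexes.

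In the male controls *Pkd2* stood at 272, 298, 250.3, 332 and 303 CPM (MC1 to MC5), and in the male mutants at 109.7, 124, 109.7, 133 and 120.1 CPM (MM1 to MM5). In the female controls it stood at 193, 306, 290.7, 218 and 278 CPM (FC1 to FC5), and in the female mutants at 150.1, 133, 94.7, 182 and 166 CPM (FM1 to FM5). Every mutant lay below every control, and the gap was narrow only between the female control FC1 and the female mutant FM4. Expressed as a share of the control mean of the same sex, the male mutants held 41.0% ± 3.39 (SD, n = 5) of the *Pkd2* counts, between 37.7% and 45.6%. The female mutants held 56.5% ± 13.1 (SD, n = 5), between 36.8% in FM3 and 70.9% in FM4. The spread between female mutants was thus wider than between male mutants.

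*Pkd2* fell by 1.32 on the log2 scale in males (SE 0.083, 95% interval −1.50 to −1.14, edgeR adjusted p = 2.18e-05). The change in females was −0.80 (SE 0.176, 95% interval −1.19 to −0.41, edgeR adjusted p = 0.0276), which did not pass the threshold with all 10 females. Without FM4 it was −0.91 with an adjusted p of 0.00909 by the same test, and DESeq2's Wald test gave 0.000428 with FM4 included. Over both sexes *Pkd2* fell by 1.06 (SE 0.120, edgeR adjusted p = 9.7e-06). Taken litter by litter (A, B, C), the difference in mean log2 CPM was −1.23, −1.46 and −1.33 in males and −0.36, −1.02 and −0.74 in females. The smallest of these 6 differences rested on 1 mutant, FM1, and 1 control, FC1.

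The male change in *Pkd2* was 0.50 log2 units deeper than the female change (SE 0.214, 95% interval −0.95 to −0.05). Its unadjusted p in edgeR's test of the sex-by-genotype term was 0.0328, but the adjusted p was 1, and none of the 9 genes was called there. Of the 14820 genes tested, 0% were called and 618 (4.17%) had an unadjusted p under 0.05. DESeq2's Wald test called 18 of them (0.121%) and none of the 9. Without FM4 edgeR called 3 genes, none of the 9, and the difference for *Pkd2* was −0.38 (unadjusted p = 0.0824).

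**Figure D2:**
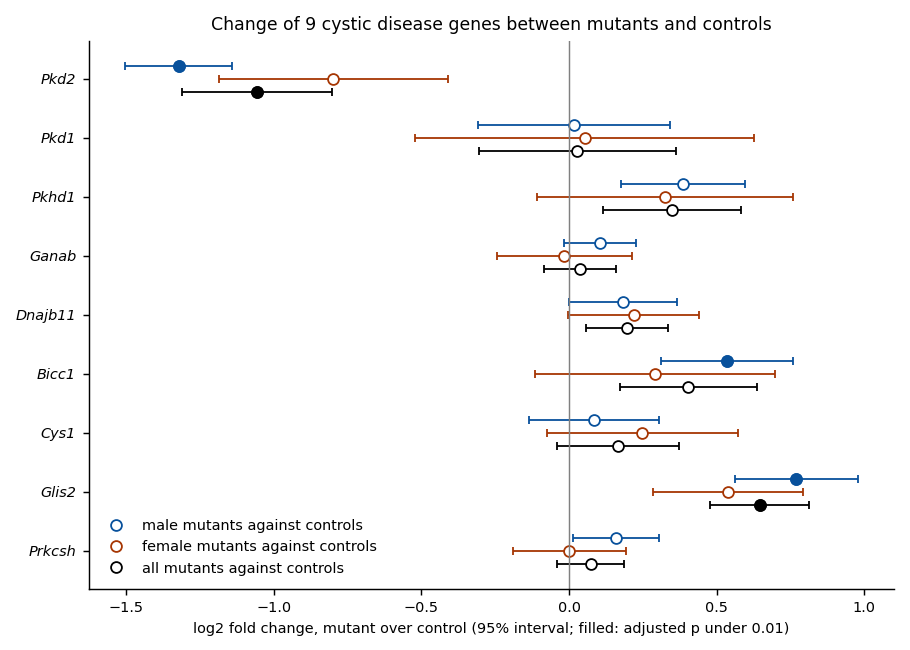
Log2 fold change between mutants and controls (horizontal axis) for each gene in males, females and both sexes, with 95% intervals and filled points at an adjusted p under 0.01. *Pkd2* sits at −1.32, −0.80 and −1.06, *Glis2* at 0.77, 0.54 and 0.65, and *Pkd1* within 0.06 of 0 in all 3 comparisons.

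*Pkd1* (chr17:24549834-24596508, plus strand), which encodes the partner of polycystin-2, had the lowest level of the 9 per length of transcript. Divided by the length of the longest coding transcript, its level in the 10 controls was 3.11 ± 0.675 CPM per kilobase (SD), against 52.5 ± 8.18 for *Pkd2*. Levels in male controls were 39.0, 48.9, 28.3, 44.4 and 40.8 CPM and in male mutants 37.4, 37.7, 37.7, 57.4 and 43.5 CPM. In female controls they were 56.7, 46.2, 59.1, 44.5 and 33.0 CPM, and in female mutants 26.3, 39.0, 78.9, 49.2 and 53.8 CPM. The groups overlapped widely, and FM1 and FM3 were the lowest and the highest of all 20 mice.

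The log2 change of *Pkd1* was 0.02 in males (95% interval −0.31 to 0.34), 0.05 in females (−0.52 to 0.63) and 0.03 over both sexes (−0.30 to 0.36). The edgeR adjusted p-values were 0.955, 0.947 and 0.919. The intervals leave room for changes of up to 0.63 on the log2 scale in females, so these data do not show that *Pkd1* was equal in mutants and controls. They do not reach the estimated fall of *Pkd2*, −1.32 in males and −0.80 in females. In females, though, the interval of *Pkd1* overlaps that of *Pkd2* (−1.19 to −0.41).

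The ratio of *Pkd1* to *Pkd2* counts within a library, which does not depend on how libraries are scaled, was 0.138 ± 0.0184 (SD, n = 5) in male controls and 0.357 ± 0.0472 (SD, n = 5) in male mutants. All male mutants lay above all male controls, and the mean log2 ratio was 1.37 higher (two-sided exact permutation test over all splits of the males, p = 0.00794, the smallest that 5 mice against 5 allow, and 0.0317 after Benjamini-Hochberg adjustment over 4 ratio comparisons). With litter held and splits only within litters, a setting chosen after the data were seen, the difference was 1.35 with an exact p of 0.0167, the smallest of the 60 splits (adjusted p = 0.0667). In females the ratio was 0.194 ± 0.0666 (SD, n = 5) in controls and 0.379 ± 0.260 (SD, n = 5) in mutants. The female groups overlapped, from 0.119 to 0.294 in controls and from 0.175 to 0.834 in mutants, and the log2 difference of 0.82 had an exact permutation p of 0.0952 (adjusted p = 0.190), and 0.150 within litters. In litter A the mutant FM1 (0.175) lay below the control FC1 (0.294). FM3 held the ratio of 0.834. Without FM3 the difference was 0.48 (exact p = 0.167), while without FM1 it was 1.04 (exact p = 0.0317) and without FC1 0.99 (exact p = 0.0476). The targeted gene is the denominator of this ratio, and *Pkd1* itself was not called in either sex. The ratio also does not remove the level of other long transcripts, described below. Over the 20 mice that level correlated at 0.95 with *Pkd1* and −0.23 with *Pkd2*. It was 0.40 in FM3, 0.15 in FC1 and −0.26 in FM1, and its part in the ratio was not tested.

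**Figure D3:**
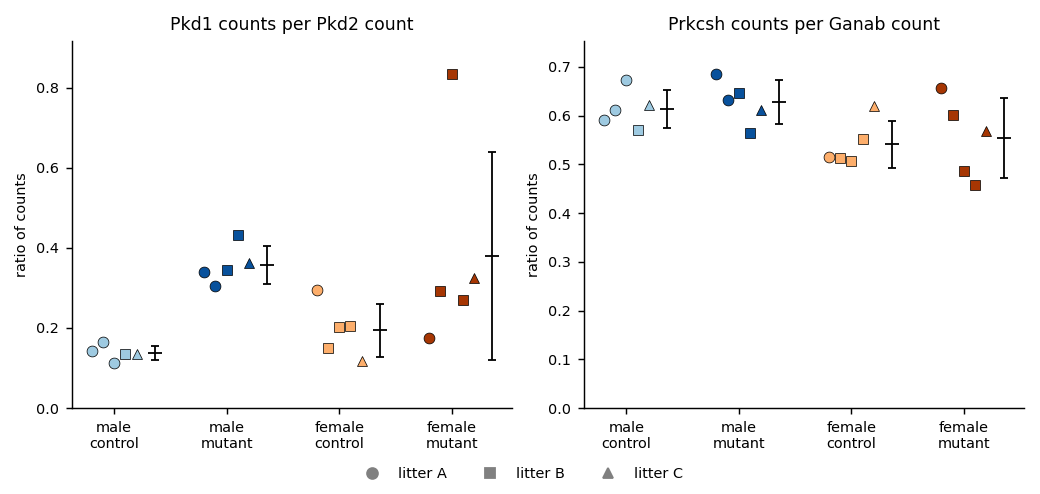
Ratio of *Pkd1* to *Pkd2* counts (left) and of *Prkcsh* to *Ganab* counts (right) in each mouse of the 4 groups, with the mean ± SD of 5 mice and the litter as the symbol. Male mutants lie between 0.304 and 0.432 and male controls between 0.113 and 0.164 on the left, where FM3 stands at 0.834, and the groups overlap on the right.

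*Pkhd1* (chr1:20057779-20618064, minus strand), which encodes the receptor-like ciliary protein fibrocystin, stood at 191, 195, 156, 206 and 218 CPM in male controls and 280.1, 208, 245, 267 and 290.4 CPM in male mutants. In female controls it stood at 242, 199, 244, 204 and 162 CPM, and in female mutants at 179.6, 224, 411, 285 and 211 CPM. In males only MM2 fell within the range of the controls, whereas in females the groups overlapped and FM3 stood highest. The log2 changes were 0.39 in males (SE 0.096, edgeR adjusted p = 0.0162), 0.32 in females (SE 0.197, adjusted p = 0.398) and 0.35 over both sexes (SE 0.112, adjusted p = 0.0270), none of them called. The female change was 0.12 without FM3, 0.51 without FC1 and 0.50 without FM1. Without MM2 the male change was 0.46 with an adjusted p of 0.00464, and DESeq2's Wald test gave 0.00183 for all 10 males. Over both sexes the adjusted p was 0.00469 without FC1 and 0.00464 without FM1.

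Between mice of the same group, *Pkd1* and *Pkhd1* varied together with other long transcripts, and so, less closely, did the shorter *Bicc1*. For each mouse the mean log2 level of 684 genes whose longest coding transcript was at least 8222 bases (the longest 5%, the 9 genes left out) was taken relative to its mean over all mice. This level was highest in FM3 (0.40) and lowest in FC5 (−0.36), FM1 (−0.26) and MC3 (−0.23). Over the 20 mice its correlation with log2 CPM was 0.95 for *Pkd1* (14164 bases), 0.79 for *Pkhd1* (12935 bases) and 0.64 for *Bicc1* (5431 bases). It was −0.23 for *Pkd2* (5219 bases). For the shorter transcripts of *Dnajb11*, *Prkcsh* and *Cys1*, of 1828 to 2513 bases, it lay between −0.37 and −0.25. With group means removed it was 0.96 for *Pkd1*, 0.84 for *Pkhd1*, 0.71 for *Bicc1*, 0.51 for *Ganab*, 0.15 for *Glis2* and −0.20 for *Pkd2*. The shorter transcripts then stood further from 0, at −0.64 for *Prkcsh*, −0.585 for *Dnajb11* and −0.45 for *Cys1*. These correlations are descriptions across mice that share sequencing depth and library handling, and what sets the level of long transcripts was not tested.

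With this level as a covariate, a setting chosen after the data were seen, the standard error of *Pkd1* over both sexes dropped from 0.158 to 0.045 and its log2 change was −0.08 (edgeR adjusted p = 0.197). In the same fit *Bicc1* (0.36, adjusted p = 0.00791), *Pkhd1* (0.28, adjusted p = 0.00509) and *Dnajb11* (0.22, adjusted p = 0.00498) joined *Pkd2* and *Glis2*, so that 5 of the 9 genes were called, where 18.7% of 14191 genes were. In males alone the covariate left 2 of the 9, *Pkd2* and *Glis2*, with 4.98% of all genes called.

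**Figure D4:**
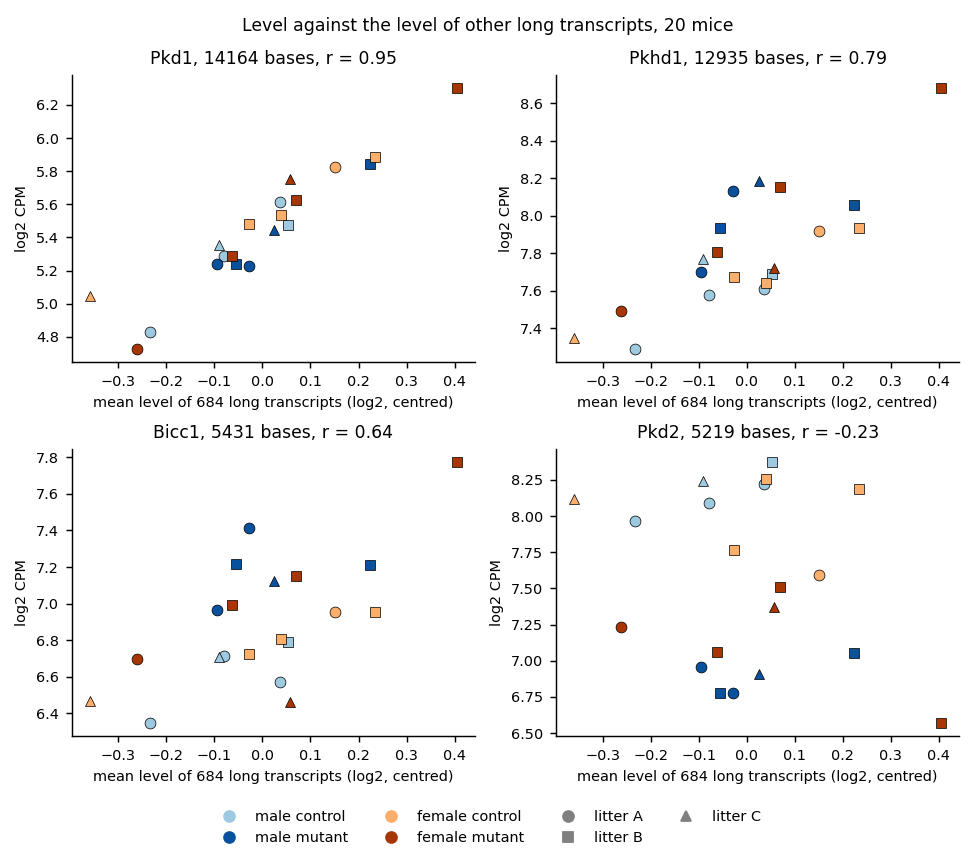
Log2 CPM of *Pkd1*, *Pkhd1*, *Bicc1* and *Pkd2* (vertical axes) against the mean centred log2 level of 684 long transcripts of other genes (horizontal axes) in 20 mice, with color for the group and symbol for the litter. *Pkd1* follows the horizontal axis closely (r = 0.95) in every group, whereas *Pkd2* separates by genotype (r = −0.23).

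*Bicc1* (chr10:70922832-71159700, minus strand), whose RNA-binding product represses and stabilizes target transcripts, stood at 105, 95.04, 81.2, 110.4 and 104 CPM in male controls. In male mutants it stood at 170.1, 124.9, 149, 148 and 139 CPM, all above the controls. In females the groups overlapped, with 124, 112, 124, 106 and 88.2 CPM in controls and 104, 127, 219, 142 and 88.1 CPM in mutants. *Bicc1* rose in males by 0.54 (SE 0.102, edgeR adjusted p = 0.00486). This call was lost when any of 7 single males was left out (MC1 to MC5, MM3 or MM5), with adjusted p-values up to 0.0219, and when all 20 mice were fitted together (adjusted p = 0.0336). The log2 change was 0.29 in females (SE 0.184, adjusted p = 0.422) and 0.40 over both sexes (SE 0.110, adjusted p = 0.0105), neither of them called. The female change fell to 0.08 without FM3. Over both sexes *Bicc1* was called by DESeq2's Wald test (adjusted p = 0.0037, where 20.9% of all genes were called) and with no filter on low counts (adjusted p = 0.00878). It also passed in 6 of the 20 fits that left out 1 mouse (FC1, FC5, FM1, FM2, FM4 or FM5), with adjusted p-values from 0.00316 to 0.0379 over the 20. FC1 and FM1 are the only females of litter A, and FC5 and FM5 of litter C, so that leaving out either mouse of such a pair removes the same comparison.

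*Glis2* (chr16:4594713-4624924, plus strand), a Gli-similar transcription factor whose loss causes a nephronophthisis-like kidney disease, was the member that rose most. Male controls stood at 117, 140.2, 135, 148 and 161 CPM and male mutants at 264, 216, 272, 215 and 245 CPM. Female controls stood at 181, 138, 141, 157 and 162 CPM and female mutants at 189, 220.2, 240.4, 243 and 219.8 CPM. No mutant fell within the range of the controls of either sex, although FM1 at 189 and FC1 at 181, the female pair of litter A, lay close together. The rise in males was 0.77 (SE 0.095, 95% interval 0.56 to 0.98, edgeR adjusted p = 0.00077) and over both sexes 0.65 (SE 0.080, adjusted p = 1.94e-05). The change in females was 0.54 (SE 0.115, adjusted p = 0.0256), short of the threshold, with 0.000461 by DESeq2's Wald test. In the 3 litters in turn (A, B, C), mean log2 CPM differed by 0.87, 0.71 and 0.61 in males and 0.06, 0.69 and 0.44 in females.

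*Cys1* (chr12:24665833-24681813, minus strand), which encodes the membrane-anchored ciliary protein cystin, overlapped between genotypes in both sexes. Its range was 39.1 to 53.8 CPM in male controls, 38.3 to 55.3 in male mutants, 44.0 to 62.0 in female controls and 38.3 to 74.6 in female mutants. The log2 change was 0.08 in males (95% interval −0.14 to 0.31) and 0.25 in females (−0.08 to 0.57), with edgeR adjusted p-values of 0.598 and 0.385. The female change was 0.12 without FM4.

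The genes of the endoplasmic reticulum differed little between genotypes. *Ganab* (chr19:8898071-8916672, plus strand), the catalytic subunit of glucosidase II, and *Prkcsh* (chr9:22002806-22014222, plus strand), its regulatory subunit, trim glucose from N-linked glycans. They had the highest levels per length of the 9, at 64.1 ± 2.76 and 64.1 ± 6.20 CPM per kilobase in the 10 controls (SD). The log2 changes of *Ganab* were 0.10 in males (95% interval −0.02 to 0.23) and −0.02 in females (−0.25 to 0.21). Those of *Prkcsh* were 0.16 (0.01 to 0.31, edgeR adjusted p = 0.113) and 0.00 (−0.19 to 0.19, adjusted p = 0.999). The ratio of *Prkcsh* to *Ganab* counts was 0.614 ± 0.0393 in male controls and 0.627 ± 0.0449 in male mutants (SD, n = 5, exact permutation p = 0.603). In females it was 0.541 ± 0.0478 in controls and 0.554 ± 0.0818 in mutants (SD, n = 5, exact permutation p = 0.841), so neither difference exceeded the spread between mice.

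*Dnajb11* (chr16:22857845-22879634, plus strand), a cofactor of the chaperone BiP, ranged from 124.9 to 158 CPM in male controls and from 144 to 165 in male mutants. Its range was 94.7 to 124 CPM in female controls and 105 to 155 in female mutants. The mutant mean was above the control mean in each of the 6 combinations of sex and litter, by 0.03 to 0.42 on the log2 scale. The log2 change was 0.18 in males (SE 0.083, edgeR adjusted p = 0.148), 0.22 in females (SE 0.101, adjusted p = 0.250) and 0.20 over both sexes (SE 0.066, adjusted p = 0.0349), none of them called.

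Genes whose groups did not overlap were counted as well, called or not. Among the 9 genes, 3 did not overlap between male mutants and controls (*Pkd2*, *Bicc1* and *Glis2*), where 15.3% of all tested genes did not. In females 2 did not (*Pkd2* and *Glis2*), against 7.04%, and over all 10 mutants and 10 controls the same 2 genes did not, against 1.24%.

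Differences between the sexes were asked for within each genotype. None of the 9 was called between male and female controls, where 17.8% of 14123 genes were, although 4 had an unadjusted p under 0.05, where 40.4% of all genes had. DESeq2's Wald test called 2 (*Pkd2* and *Dnajb11*), where it called 21.4% of all genes. *Pkd2* was 0.37 higher in male than in female controls on the log2 scale (SE 0.111, edgeR adjusted p = 0.0255) and *Dnajb11* 0.35 higher (SE 0.102, adjusted p = 0.0218). The litters were unequally spread over the sexes in controls, and with no litter term the difference in *Pkd2* was 0.22 (adjusted p = 0.178), with 0.24 (adjusted p = 0.296) when all 20 mice were fitted together. *Dnajb11* was called with no litter term (0.37, adjusted p = 0.00524). *Dnajb11* was the only one of the 9 whose control groups did not overlap, at 124.9 CPM in the lowest male and 123.7 in the highest female, where 23.9% of all genes did not overlap. Between male and female mutants none was called either, where 5.42% of 14416 genes were (9.12% without FM4). Here 2 had an unadjusted p under 0.05, where 30.5% of all genes had, and DESeq2's Wald test called *Prkcsh*, where it called 13.6% of all genes. *Prkcsh* was 0.36 higher in male mutants (SE 0.082, edgeR adjusted p = 0.0163), and 0.35 with an adjusted p of 0.000796 when all 20 mice were fitted together, and was the only one of the 9 without overlap, where 13.3% of all genes did not overlap. In controls *Prkcsh* was 0.20 higher in males (SE 0.069, edgeR adjusted p = 0.0437), and in mutants *Dnajb11* was 0.31 higher in males (SE 0.101, adjusted p = 0.0635). The sex-by-genotype term was 0.19 for *Prkcsh* and −0.01 for *Dnajb11* (edgeR unadjusted p = 0.0816 and 0.957).

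In the order of group means, *Pkd2* ran from male mutants (119 ± 9.86 CPM, SD) through female mutants (145 ± 33.6) and female controls (257 ± 49.1) to male controls (291 ± 31.1). *Glis2* ran from male controls (140.3 ± 16.2) through female controls (156 ± 17.3) and female mutants (222 ± 21.8) to male mutants (243 ± 26.7). In both genes the ranges of neighbouring groups separated only at the step between female controls and female mutants. For each of the other 7 genes all neighbouring groups in the order overlapped.

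KBW was used to ask whether these genes follow the size of the mutant kidney. It was 1.68% ± 0.338 (SD, n = 5) in male and 1.18% ± 0.261 in female mutants, and at most 0.896% in controls. From the smallest to the largest KBW the 10 mutants were FM4 (0.836%), FM5 (1.00%), MM2 (1.22%), FM2 (1.24%), FM1 (1.38%), FM3 (1.46%), MM4 (1.54%), MM5 (1.71%), MM3 (1.79%) and MM1 (2.15%). *Pkd2* in the same order was 182, 166, 124, 133, 150.1, 94.7, 133, 120.1, 109.7 and 109.7 CPM. FM4 and FM5, the females with the smallest KBW, thus had the most *Pkd2* left, and FM3, in the middle of the order, had the least. MM2, next in the order, had less than FM2, FM1 and MM4, whose KBW was larger. Males mostly stood at the upper end, so this order does not separate sex from KBW.

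Pearson's r between log2 CPM of *Pkd2* and KBW over the 10 mutants was −0.74 (permutation p = 0.0146) and Spearman's rho was −0.77 (permutation p = 0.0128). Adjusted over the 14416 genes tested, the p-values were 0.208 and 0.282, so the relation did not pass. Over all genes none passed an adjusted p under 0.01, and 2187 had a permutation p under 0.05 for Pearson's r and 1828 for Spearman's rho. Without FM4 and MM1, the mice farthest from the median KBW, r was −0.62. With 1 mutant left out in turn, r lay between −0.88 and −0.62, with permutation p-values from 0.00202 to 0.0732. With sex in the fit, *Pkd2* changed by −0.60 on the log2 scale per percentage point of KBW (SE 0.219, unadjusted p = 0.0171, edgeR adjusted p = 0.138), and with sex and litter by −0.62 (adjusted p = 0.168). Without FM4 the slope was −0.48 (SE 0.241, unadjusted p = 0.0721), and without FM3 −0.37 (edgeR adjusted p = 0.252). No correlation was computed within a single sex (5 mutants) or litter (2 to 5), which hold fewer than the 6 mice set as the minimum.

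*Prkcsh* (r = 0.73, permutation p = 0.0158), *Dnajb11* (r = 0.64, p = 0.0472) and *Cys1* (r = −0.66, p = 0.0397) had the next largest Pearson correlations with KBW, with adjusted p-values of 0.213 to 0.323. By Spearman's rho *Dnajb11* came first of the 9 (0.79, permutation p = 0.00825, adjusted p = 0.248), with 0.71 for *Prkcsh* and −0.66 for *Cys1*. Without FM4 and MM1 the Pearson correlations became 0.66, 0.53 and −0.52. The 5 male mutants had both higher *Prkcsh* and, on average, higher KBW than the 5 females. With sex in the fit its slope was 0.07 per percentage point (SE 0.141, edgeR adjusted p = 0.812), against 0.37 without the sex term. The slope of *Dnajb11* with sex held was 0.12 (SE 0.180) and that of *Cys1* −0.55 (SE 0.280). *Glis2* (r = 0.50, permutation p = 0.142), *Bicc1* (r = 0.49, p = 0.149), *Pkhd1* (r = 0.26), *Pkd1* (r = −0.19) and *Ganab* (r = 0.18) had smaller correlations over the 10 mutants. This order did not hold without FM4 and MM1, where r was 0.67 for *Ganab*, 0.61 for *Glis2*, 0.59 for *Bicc1*, 0.435 for *Pkhd1* and −0.02 for *Pkd1*. *Glis2* was above every control of its sex already in FM4 and MM2, the mutants with the smallest KBW of each sex. None of the 9 slopes was called with sex held, where 0% of 14416 genes were. Of all genes, 3212 (22.3%) had an unadjusted p under 0.05 and 577 (4%) were called by DESeq2's Wald test, none of them among the 9.

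**Figure D5:**
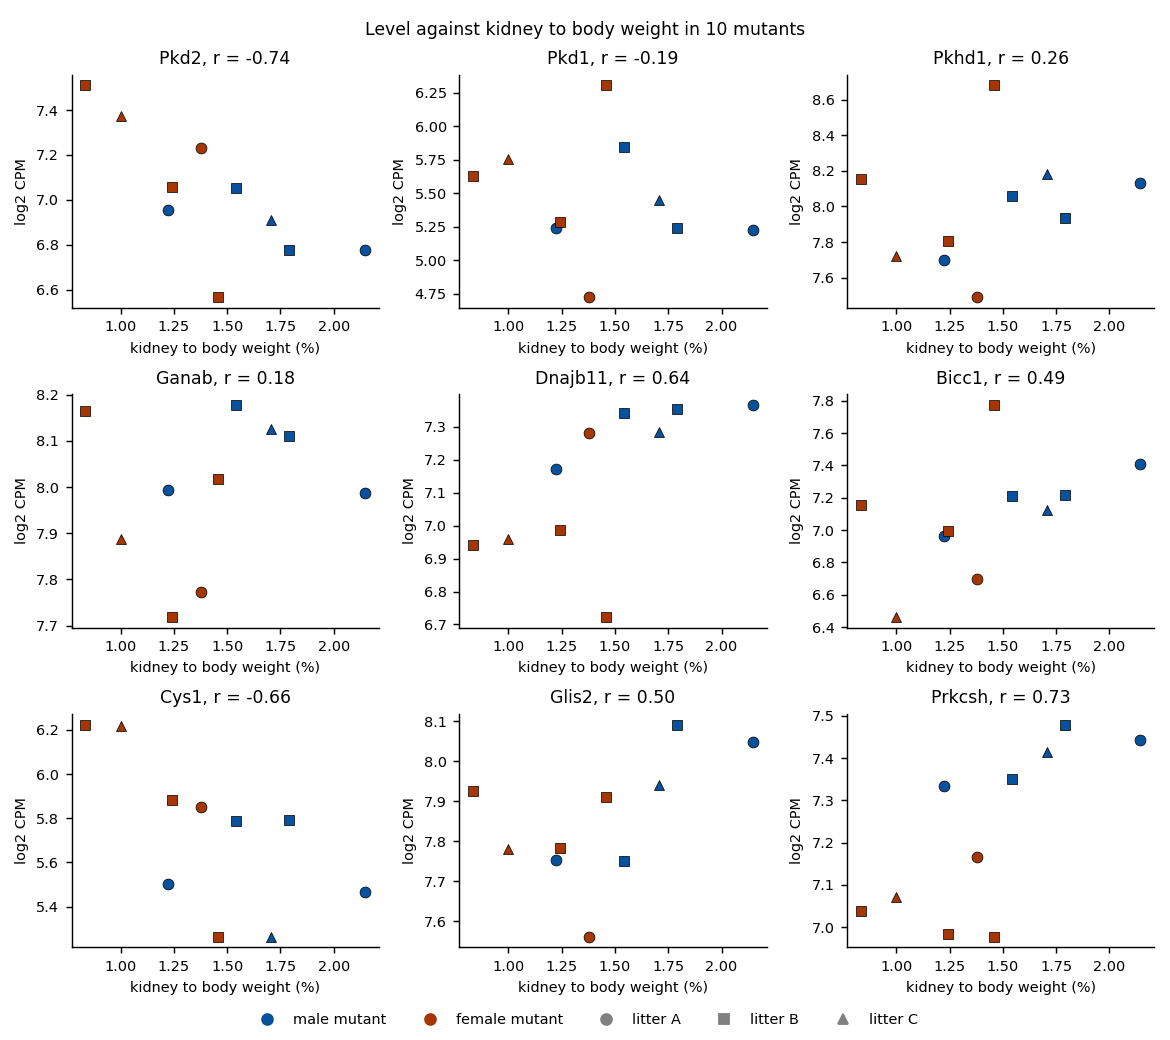
Log2 CPM of each gene (vertical axes) against KBW in percent (horizontal axes) in the 10 mutants, with color for sex and symbol for litter. *Pkd2* falls from 182 CPM in FM4 at 0.836% to 109.7 CPM in MM1 at 2.15% (r = −0.74), while *Prkcsh* (r = 0.73) is higher in every male than in every female mutant.

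The genes whose pattern over the 20 mice was most like that of *Pkd2*, among 10015 genes with a mean of at least 10 CPM, were *Miox* (r = 0.88), *Cyp2j6* (r = 0.88) and *Cyp2d12* (r = 0.88). *Miox* encodes the enzyme that oxidizes inositol in proximal tubule and the other 2 encode cytochrome P450 enzymes. With group means removed these correlations dropped to between 0.55 and 0.64. The genes most like *Pkd1* were *Vps13c* (r = 0.93), *Zfp646* (r = 0.92) and *Ash1l* (r = 0.92), whose longest coding transcripts have 11527, 6682 and 11644 bases. With group means removed each of these was 0.94. Both sets are descriptions over mice that share group, depth and library handling.

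Of 61 other genes of cystic kidney diseases and of the polycystin pathway in 5 lists, 56 were tested over both sexes and 5 (8.93%) were called, below the 15.9% of all genes. In males 2 of 56 were called (*Muc1* and *Col4a1*, both higher), and in females none of 55 by edgeR, with 6 at an unadjusted p under 0.05 and 3 called by DESeq2's Wald test. Among the polycystin and fibrocystin relatives 3 of 7 were expressed enough to be tested and none was called. Their median log2 change was −0.20, and only 1 of the 3 was higher, *Pkd2l2* at 0.06. Of 13 genes that handle glycoproteins in the endoplasmic reticulum, from protein entry and glycan trimming to transport, 1 was called. This was *Lman1*, a cargo receptor for glycoproteins, which fell by 0.26 (SE 0.057, edgeR adjusted p = 0.00203). *Sec61a1*, part of the translocation channel, stood at 0.18 (adjusted p = 0.0248), and *Sec63*, a polycystic liver disease gene, at 0.03.

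Of 30 nephronophthisis and ciliary genes, 1 was called over both sexes, *Dcdc2a*, which encodes a microtubule-binding ciliary protein and rose by 1.26 (SE 0.234, adjusted p = 0.000652). The median of the 30 was −0.03, against −0.01 over all genes. Among the genes of autosomal dominant tubulointerstitial disease, *Muc1* and *Umod* were called. *Muc1*, an apical mucin, rose by 1.46 (SE 0.205, adjusted p = 5.76e-05), and *Umod*, which encodes uromodulin of the thick ascending limb, fell by 0.42 (SE 0.078, adjusted p = 0.00058). Of 7 genes of other cystic syndromes only *Col4a1*, a basement membrane collagen, was called, and it rose by 0.88 (SE 0.151, adjusted p = 0.000363).

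Markers of cell types and of tubule injury moved with genotype, and their part in the changes above was not tested. Of all genes tested in both sexes together, 15.9% were called. Over both sexes all 6 tubule injury markers rose, and their summed level was 822 to 1037 CPM in male controls, 1812 to 9418 in male mutants, 1893 to 2312 in female controls and 2715 to 10198 in female mutants. All 7 fibroblast markers rose and 4 were called, with sums of 187 to 254, 354 to 1091, 282 to 440 and 428 to 1458 CPM in the same order of groups. All 7 leukocyte markers tested rose and 6 were called, with sums of 215 to 235, 371 to 1012, 277 to 317 and 312 to 1231 CPM. All 8 markers of the loop of Henle and distal convoluted tubule fell and 7 were called, with sums of 8237 to 8937, 4988 to 6221, 11802 to 12860 and 5645 to 8523 CPM.

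Of other markers, 2 of 8 were called for proximal tubule, 5 of 10 for collecting duct and 4 of 6 for podocytes, all lower. For endothelium 0 of 6 were called (1, higher, in males alone), and over all genes 15.9%. In the same order, the sums of these lists over all mice ranged from 8907 to 17741 CPM, from 584 to 1253, from 238 to 643 and from 252 to 442. No marker of these lists was at 0 throughout a group. Of 6 adrenal, fat and blood markers, which summed to between 5.96 and 71.6 CPM, 2 were tested and 1 was called lower, and 1 or 2 were at 0 in every mouse of a group. Of 5 pan-epithelial markers only *Pax8* was called, the gene whose promoter drives rtTA, which was 70.4 to 78.2 CPM in male controls and 105 to 117 in male mutants, 72.5 to 88.5 in female controls and 91.9 to 119 in female mutants. The summed level of the 5 was 1297 to 1439 CPM in male controls, 1442 to 1549 in male mutants, 1481 to 1764 in female controls and 1633 to 1791 in female mutants.

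Genes on the opposite strand share exonic bases with some members, and the strand setting of the counting is not given in the sources used here, so their reads cannot be told apart. *Pam16* shares 455 bases with *Glis2*, or 10.4% of its exons, and changed by 0.13 in males and 0.02 in females (edgeR adjusted p = 0.224 and 0.958). *Tsc2* shares 693 bases with *Pkd1*, or 3.98% of its exons, and changed by −0.01 in males and −0.21 in females (adjusted p = 0.913 and 0.394). *Bicc1* shares 349 bases with *4930533K18Rik*, which is not among the genes of the deposited counts, and *Pkhd1* shares 208 bases with *4930486I03Rik*, which had at most 2 counts in any mouse.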

How the data were processed

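After trimming (fastp 0.23.2) and alignment to mm10 (STAR 2.7.10b), the authors deposited whole-number read counts per gene symbol without normalization. The counting tool, annotation and strand setting are not given in the sources used here. The comparisons were fitted with edgeR 4.0.16 under R 4.3.3 (TMM, filterByExpr, quasi-likelihood test, Benjamini-Hochberg adjustment over all genes tested, threshold 0.01). Litter was the covariate within a sex or genotype, the 6 groups of sex and litter over all mice, and sex for the KBW slope. Log2 CPM had a prior count of 2. Correlations used 100000 permutations and ratios exact permutation tests, over all splits of a sex and, chosen after the data were seen, within litters. KBW took the kidney weight given as that of 1 kidney. Coordinates, lengths and sequences came from GENCODE M21 (GRCm38). All 9 genes are named, as are called genes of the other lists (at most 3 per list and direction) and the 3 genes most like *Pkd2* and *Pkd1*. *Sec61a1*, *Sec63*, *Pkd2l2* and the antisense genes were named after their values were seen. The genes, lists and alternatives were chosen with earlier results of these data known. The tests were tested on simulated data. The p-values measure the spread between single mice.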

Additional observations from a re-analysis of the deposited data

Results flagged for a closer look

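In 48 groups of 5 values (the 9 genes, both ratios and KBW in each group), 3 had a lowest or highest mouse set far apart from the other 4 by Dixon's test. Chance gives about 1 in 20, and 3 of 48 is near that share. The ratios also reuse counts of the 9 genes, so the 48 are not independent. *Cys1* stood at 53.8 CPM in MC3 against 43.0 in the next highest male control. The ratio of *Pkd1* to *Pkd2* counts was 0.834 in FM3 against 0.325 in the next female mutant. KBW was 0.896% in MC5 against 0.678% in the next male control. MC3 and FM3 also had the lowest and highest level of long transcripts of their groups, at −0.23 and 0.40 on the log2 scale.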

How the results depend on the processing

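*Pkd2* and *Glis2* kept their direction and their calls in males and over both sexes under every alternative that was run. In females 0 of the 9 genes were called, where 0.637% of all genes were. DESeq2's Wald test called 2 (6.43% of all genes) and a single fit of the 20 mice 2 (5.78%). In males 3 were called, where 8.46% of all genes were. The Wald test called 4 (14.3% of all genes) and the fit with no filter on low counts 4 (8.21%), with *Pkhd1* in addition. The single fit called 2 (5.92%). Over both sexes 2 were called, where 15.9% of all genes were. The Wald test called 3 (20.9% of all genes) and the fit with no filter 3 (11.7%), with *Bicc1* in addition. With the long-transcript level as a covariate 5 were called (18.7%). Between male and female controls the Wald test called 2 (21.4% of all genes) and the fit with no litter term 1 (21.9%). Between male and female mutants 1 was called by the Wald test (13.6%), 1 with no litter term (6.39%) and 1 in the single fit (15.9%). Leaving out each mouse in turn, the number of the 9 called lay between 2 and 4 in males and 0 and 1 in females (1 without FM4). Over both sexes it lay between 2 and 4, with 4 without FC1 or FM1, which added *Bicc1* and *Pkhd1*. Of all genes these fits called 187 to 1863, 3 to 866 and 1656 to 2994 in the same order. FC1 and FM1 are the only females of litter A, so leaving out either removes the same comparison. What sets this pair apart was not tested. With each mouse left out in turn, the log2 difference in the ratio of *Pkd1* to *Pkd2* in females lay between 0.48 and 1.04. That in the ratio of *Prkcsh* to *Ganab* lay between −0.0405 and 0.0897 in females and between −0.0007 and 0.0698 in males.

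Signs turned only for log2 changes that were not called. With the long-transcript level, *Pkd1* was −0.0929 in males, −0.0649 in females and −0.0787 over both sexes. Its sex-by-genotype term was 0.0101 with no filter and 0.0390 with no litter term, and its KBW slope was 0.0506 with sex and litter terms. *Prkcsh* in females was −0.0010 with DESeq2 size factors, −0.0008 by the Wald test, −0.0229 with no filter, −0.0228 in the single fit, −0.0011 with at least 10 counts in every mouse and −0.0004 with no litter term. *Pkhd1* between male and female mutants was −0.0190 with no litter term, the sex-by-genotype term of *Dnajb11* was 0.0018 with no filter, and the KBW slope of *Ganab* was 0.0643 with no sex term. Leaving out each mouse in turn, *Pkd1* lay from −0.0668 to 0.113 in males, −0.19 to 0.33 in females, −0.0869 to 0.153 over both sexes, −0.33 to 0.0726 between the sexes in controls, −0.26 to 0.13 in mutants, −0.27 to 0.23 for the sex-by-genotype term and −0.63 to 0.17 for the KBW slope. *Pkhd1* lay from −0.21 to 0.19 between the sexes in controls, −0.0502 to 0.24 in mutants and −0.0795 to 0.29 for the sex-by-genotype term. *Ganab* lay from −0.0737 to 0.0396 in females, −0.0002 to 0.11 between the sexes in controls and −0.33 to 0.0004 for the KBW slope. Between the sexes in controls *Bicc1* lay from −0.19 to 0.12 and *Glis2* from −0.25 to 0.0627. *Cys1* in males lay from −0.0433 to 0.15, the sex-by-genotype term of *Dnajb11* from −0.0960 to 0.0514 and *Prkcsh* in females from −0.0460 to 0.0403.

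The number of all genes called in females, 92, was 928 by the Wald test, 856 in the single fit, 230 with no filter, 172 with no litter term, 31 with the long-transcript level and 866 without FM4. In males 1185 became 2001 by the Wald test and 697 with the long-transcript level. Between male and female mutants 782 became 1959 by the Wald test, 2353 in the single fit and 1330 without FM4. Leaving out each mouse in turn, the number lay between 187 (without MC4) and 1863 (without MM2) in males and between 3 (without FC2) and 866 in females. No paired analysis was possible because the replicate numbers only name the mice, and litter is the covariate. The typical (median) standard error of a log2 change was 0.107 for males and 0.150 for females.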
